A study of Mus musculus with 1 sample.

Results

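The coelomic epithelium cells of the fetal mouse testis were described from 1 droplet library of control gonads. Cells were chosen by their own UMIs (unique molecular indexes, 1 per captured molecule). A cell had at least 1000 genes with a UMI, at least 4 of the 7 genes *Upk3b*, *Krt19*, *Upk1b*, *Krt7*, *Tm4sf5*, *Myrf* and *Msln*, at most 3 of 6 Sertoli genes and at most 4 of 6 germ cell genes, and under 0.2% of its UMIs from 4 steroidogenic genes. This left 145 of the 4301 cells with at least 1000 genes (3.37%, exact 95% interval 2.85 to 3.95%), among 5421 barcodes in all. The study deleted *Nr5a1*, which codes for a nuclear receptor of the gonad, in Sertoli cells. The library analysed here is its control, labelled WT, from cells of E14.5 testes of 12 pooled controls. In the methods the controls are *Nr5a1* L2/L2 fetuses, which carry loxP-flanked *Nr5a1* alleles but neither the Cre transgene nor, for this experiment, the YFP reporter. With 1 pooled library there was no replicate, so no test was made, and all intervals cover counting error only. Sequencing gave 72595083 UMIs over all barcodes, and 3414115 over the coelomic epithelium cells. Their depth ran from 3925 to 127109 UMIs per cell, with a median of 18787 UMIs and 4545 genes.

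The coelomic epithelium is the sheet of mesothelial cells that covers the gonad and lines the body cavity. Early in gonad formation its cells divide, and some leave the sheet and enter the gonad, where they give rise to supporting and interstitial lineages. Later it remains as a surface layer with epithelial traits such as keratins, apical membrane proteins and a basement membrane. Mesothelial cells are known for carrying epithelial and mesenchymal genes together, with WT1 as a shared transcription factor.

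The genes that chose the cells were not equally frequent among them. *Upk3b* (a membrane protein of the uroplakin family; chromosome 5, 136038496 to 136046487, GRCm38) had 0, 258 and 1043 CPM (UMIs per 1000000 UMIs of the cell) in the lowest, the median and the highest cell. Pooled over the cells its level was 311 CPM (95% interval 293 to 330.3), and 139 of 145 cells had a UMI. *Tm4sf5*, a tetraspan membrane protein, reached 238 CPM and 134 cells. *Myrf*, a transcription factor that is made as a membrane protein and released by cleavage, stood at 186 CPM in 137 cells. The keratins *Krt19* and *Krt7* had 193 CPM in 106 cells and 156 CPM in 123 cells. *Upk1b*, which codes for a uroplakin of the tetraspanin kind, had 120 CPM in 122 cells. *Msln*, which codes for mesothelin, was seen in 11 cells only, at 3.51 CPM (1.82 to 6.14). Thus the cells were selected in practice on 6 genes, and 65 cells had all 6 of them.

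**Figure D1:**
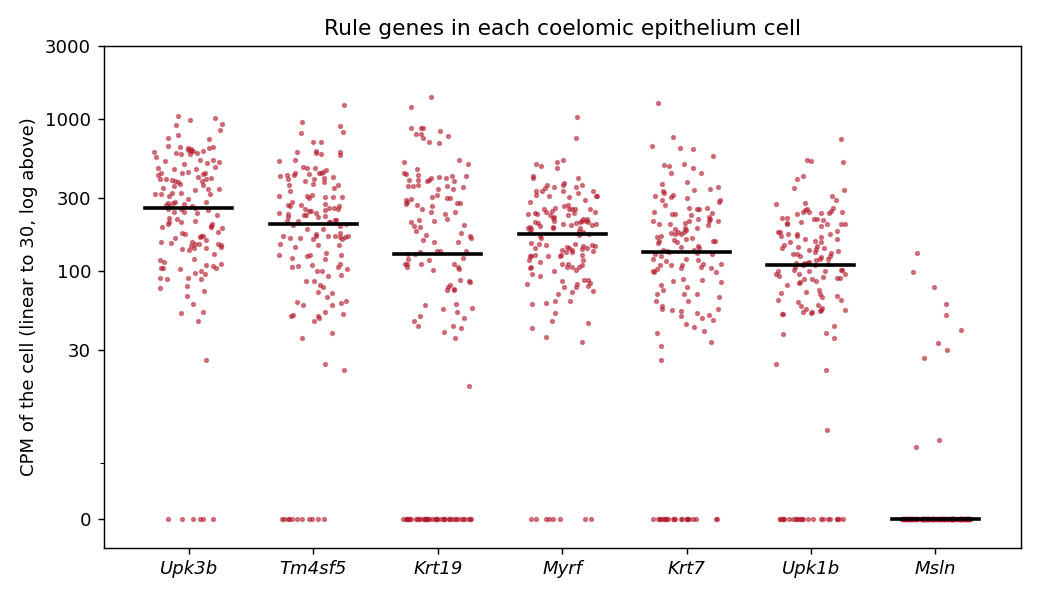
CPM of each of the 7 genes used for the choice (vertical axis, linear to 30 and logarithmic above) in each of the 145 cells (points), with the median over cells as a bar. *Upk3b* was missing from 6 cells, *Krt19* from 39, and *Msln* was seen in 11.

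Among cells that met every other limit, those with 3 of these genes, just below the limit of 4, were fewer than those with 2 or with 4. Of the chosen cells, 26 had exactly 4, 53 had 5, 59 had 6 and 7 had all 7. The 26 cells just inside the limit had a median of 15857.5 UMIs, with 253.5 CPM of *Upk3b*, 67.6 of *Krt19*, 299 of *Aldh1a2* and 84.5 of *Lrrn4*. A further 22 cells met every other limit with exactly 3 genes. Just outside, those 22 cells had a median of 11437.5 UMIs, with 223 CPM of *Upk3b*, 31.9 of *Krt19*, 223 of *Aldh1a2* and 57.4 of *Lrrn4*. Cells with 2 genes (33 cells) had 61 CPM of *Upk3b*, and 179 cells had 1 and 2153 cells none of the genes. Another 7 cells had at least 4 of the genes but exceeded the Sertoli limit, 1 of them the germ cell limit and 1 the steroidogenic limit as well.

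Promoter sequence is shown for *Upk3b*, *Lrrn4* and *Myl7*, the gene with the highest level among those that chose the cells and the pair with the highest ratio to all other cells outside those 7 genes. The 250 bases before the start are from RefSeq (GRCm38.p6), written on the strand of the gene. Capitals mark matches, on either strand, to the short motifs CTGGNAC of MYRF and GGAATG of TEAD factors, which were chosen after the values were seen.
*Upk3b* (chr5:136038246-136038495, plus strand): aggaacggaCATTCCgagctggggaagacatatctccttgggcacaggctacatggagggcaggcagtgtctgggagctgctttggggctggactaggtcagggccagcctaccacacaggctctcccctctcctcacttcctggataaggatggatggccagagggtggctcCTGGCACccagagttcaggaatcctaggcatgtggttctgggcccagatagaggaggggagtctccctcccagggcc
*Lrrn4* (chr2:132880863-132881112, minus strand): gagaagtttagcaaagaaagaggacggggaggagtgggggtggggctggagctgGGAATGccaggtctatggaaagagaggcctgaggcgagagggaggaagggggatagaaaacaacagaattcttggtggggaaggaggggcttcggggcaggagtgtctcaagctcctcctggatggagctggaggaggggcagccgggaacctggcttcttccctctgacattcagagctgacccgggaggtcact
*Myl7* (chr11:5898783-5899032, minus strand): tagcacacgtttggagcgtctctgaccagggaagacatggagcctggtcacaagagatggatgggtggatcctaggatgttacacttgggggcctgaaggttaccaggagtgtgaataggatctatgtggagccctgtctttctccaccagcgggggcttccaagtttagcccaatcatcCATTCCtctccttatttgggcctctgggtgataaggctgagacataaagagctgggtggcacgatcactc
*Upk3b* held 1 match to the MYRF motif, starting 77 bases before the start, and 1 to the TEAD motif. *Lrrn4* and *Myl7* held 1 TEAD motif each, starting 196 and 70 bases before the start. Of the 27 genes that chose the cells or had the highest ratio to all other cells outside the choice, 18 had 19 such regions. GGAATG was found in 7 of these 19 regions (36.8%), against 12.6% of the 32851 regions of that length in the table. CTGGNAC was found in 2 (10.5%, against 16.1% of all), and AGATAA of GATA factors in 1 (5.26%, against 9.99% of all). A match is a run of letters and not a measured binding site.

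Several mesothelial genes that were not used for the choice were also high. *Wt1*, a zinc finger transcription factor, had a UMI in all 145 cells. Its level was 62.9, 317 and 1004 CPM in the lowest, median and highest cell, and 359 CPM (339 to 379.5) pooled, against 57.1 in interstitial, 112 in peritubular myoid and 266 in Sertoli cells. *Lrrn4*, a leucine-rich repeat membrane protein, stood at 101 CPM in 117 cells and 0.542 CPM in interstitial cells. *Podxl* (podocalyxin, an apical sialomucin) had 164 CPM in 131 cells, *Bnc1* (basonuclin, a zinc finger protein) 78.2 CPM, *Ezr* (ezrin, which links apical membrane to actin) 153 CPM and *Crb2* (crumbs, an apical polarity protein) 42.8 CPM. The mucin gene *Muc16* was at 34 CPM, with a UMI in 40% of cells, and *Gpm6a*, a membrane glycoprotein, at 34.3 CPM. Of the 18 mesothelial genes outside the rule, 11 had a UMI in at least 25% of the cells. The share of all genes that did so is not given, so this count is a description. *Gpc3* (852 against 547 CPM) and *Nkain4* (51 against 64.9 CPM) lay within 2-fold of interstitial cells. The other genes of the list were lower in level. *Ildr2*, *Cldn15*, *Lrp2* and *Efemp1* had 29.9, 17, 12.3 and 12.3 CPM, and *Calb2* and *Ly6a* 1.76 and 1.46 CPM. *Slpi* and *Itln1*, which mark adult mesothelium, had no UMI, which allows up to 0.879 CPM (3 counts of the total). With *Msln*, described above, 5 mesothelial genes were thus absent or nearly so, while the others were present at levels that differed widely.

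Of the 6 uroplakins 2, and of the 10 keratins 6, had a UMI in at least 25% of the cells. These counts too stand without the share of all genes and are descriptions. Uroplakins are the membrane proteins that form plaques on the bladder surface. *Upk3b* and *Upk1b* were high, while *Upk2*, *Upk3a* and *Upk3bl* had no UMI and *Upk1a* had 0.293 CPM. Keratins build the intermediate filaments of epithelia as pairs of a type I and a type II chain. The type I chains *Krt18* (92.3 CPM) and *Krt14* (60 CPM) and the type II chain *Krt8* (54.2 CPM) were higher than in interstitial cells, where they had 5.22, 0.197 and 3.55 CPM. *Krt19* and *Krt7* belong to the choice, which fixed that they were higher. *Krt10*, a type I chain, was at 43.9 CPM, close to the 51 CPM of interstitial cells. *Krt18* and *Krt8* had 60 and 93.6 CPM in Sertoli cells, which are epithelial too. *Krt14*, known from basal layers of stratified epithelia, was seen in 69 cells, up to 758 CPM in 1 cell. In the 16 cells without an interstitial or peritubular myoid gate, described below, it had 8.6 CPM, while *Krt19* and *Krt7* had 482 and 271 CPM. *Krt5*, the partner of *Krt14*, had 0.586 CPM, and *Krt15* had 10.5 CPM. *Krt20* and *Krt23* had no UMI.

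**Figure D2:**
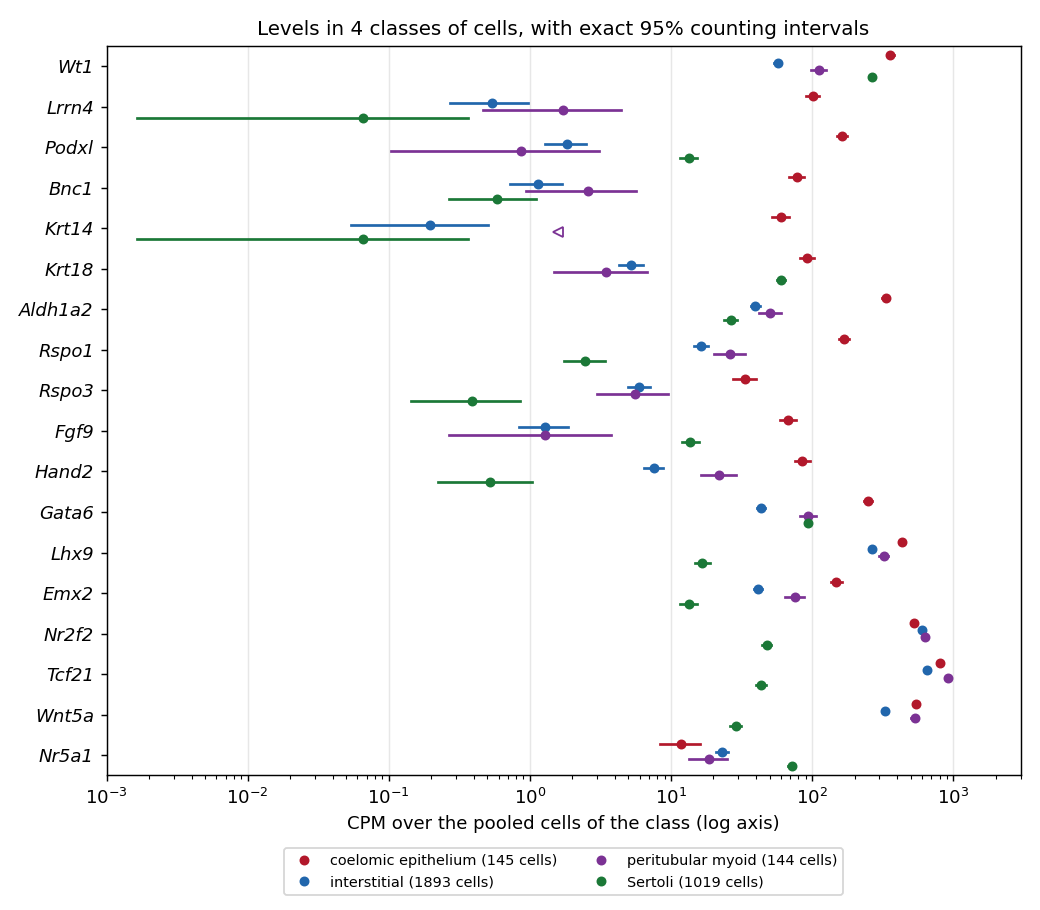
Pooled CPM (horizontal log axis) of 18 genes in coelomic epithelium, interstitial, peritubular myoid and Sertoli cells, with exact 95% Poisson intervals as lines and an open triangle at the upper bound where a class had no UMI. *Nr2f2*, *Tcf21* and *Wnt5a* lay within 2-fold of the interstitial level, and *Krt14* and *Lrrn4* far above it.

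The 20 genes with the highest ratio to all other cells, the genes of the choice left out, covered several functions. *Myl7*, the atrial myosin light chain, had 193 CPM and up to 1653 CPM in a cell, but was missing from 46 of 145 cells. *S100a6* (a calcium-binding protein) was in every cell, with 55.8, 609 and 3094 CPM in the lowest, median and highest cell. *Hpgd*, which breaks down prostaglandins, had 220 CPM (204 to 236), against 28.4 in interstitial cells. In the 16 cells with neither stromal gate it had 47.3 CPM, which is less than 2-fold above interstitial cells (log2 ratio 0.65, 5 CPM added, against 2.75 in all cells). *Fras1* and *Frem2*, which code for partners in 1 complex beneath the epidermal basement membrane, stood at 184 and 70.6 CPM. *Sulf1*, which trims heparan sulfate, was at 199 CPM and the axon guidance receptor gene *Plxna4* at 82.6 CPM. *Cryab*, a small heat shock protein, had 153 CPM and the secreted *Angptl7* 110 CPM (30.1 CPM in those 16 cells). The kinase gene *Stk26* and the membrane protein genes *Tmem108* and *Tmem151a* were at 113, 167 and 91.1 CPM. *Hand2*, a transcription factor of lateral mesoderm, had 85.5 CPM, against 7.54 in interstitial and 0.521 in Sertoli cells. *Aldh1a2*, *Rspo1* and *Pdgfc* belong to signalling pathways described below.

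Over the transcriptome, the coelomic epithelium was compared with the 2 stromal classes and with Sertoli cells. These classes were gated on other genes, and had at most 2 of the 7 genes of the choice. Pooled CPM were compared with 5 CPM added, over genes with at least 100 UMIs in both classes together. A 2-fold difference is a rule of size and not a test. Against 1893 interstitial cells, 371 of 10334 genes were at least 2-fold higher (3.59% of genes) and 375 at least 2-fold lower (3.63%). Against 144 peritubular myoid cells, 218 of 6718 genes (3.25%) were higher and 159 (2.37%) lower. Against 1019 Sertoli cells, 841 of 10054 genes (8.36%) were higher and 1146 (11.4%) lower. The counts depend on depth, since fewer genes reached 100 UMIs beside the smaller peritubular myoid class. They include the genes of the choice, so the size of these shares is a description. A gene that is low in one class could reach 100 UMIs through the other alone, so the counts per list below are descriptions as well.

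**Figure D3:**
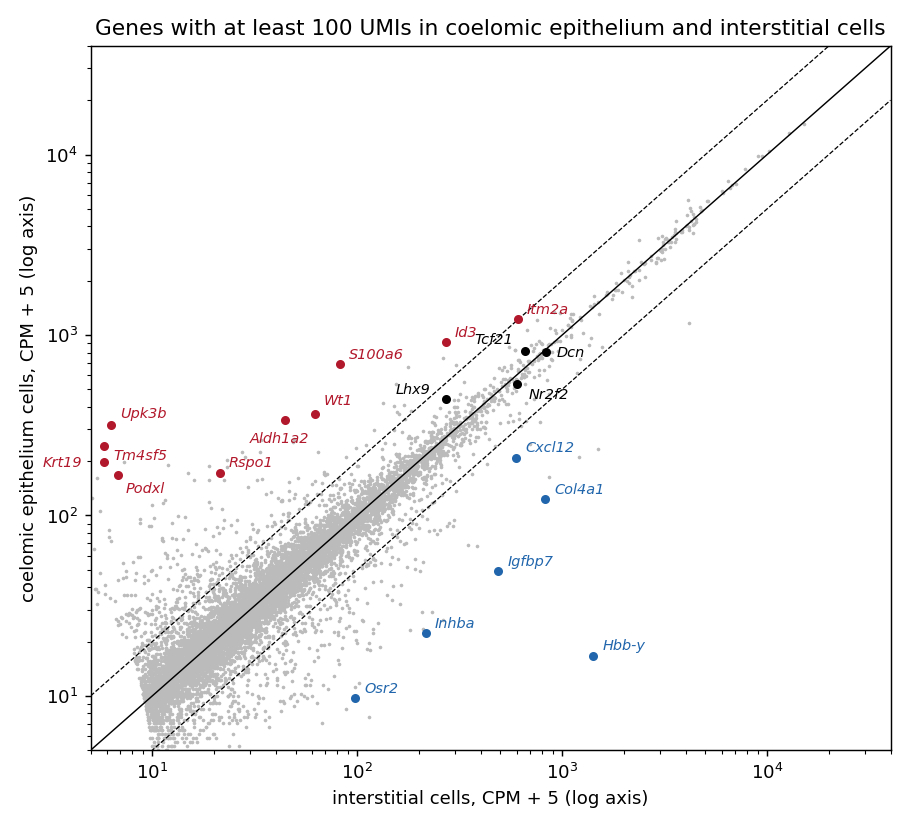
CPM + 5 in coelomic epithelium cells (vertical log axis) against interstitial cells (horizontal log axis) for each gene with at least 100 UMIs. The solid line marks equal values and the dashed lines a 2-fold difference, with 371 genes above the upper and 375 below the lower line. *Nr2f2*, *Tcf21* and *Dcn* lay between them.

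Among genes at least 2-fold higher than in each of the 3 classes, the most abundant was *Itm2a*, which codes for a membrane protein of the BRICHOS family. It had 0, 745 and 5803 CPM in the lowest, median and highest cell and 1217 CPM pooled, against 602 in interstitial cells. This ratio lay at the limit (log2 1.01, 5 CPM added) and fell below it, to 0.96 with 3 genes required, 0.94 with outlier cells left out and 0.95 without cells over 50000 UMIs or over 1% hemoglobin. *Aprt*, of purine salvage, was in every cell at 742 CPM (714 to 772), against 256 in interstitial and 50 in Sertoli cells. *Id1* had 404 CPM and *Cdkn1c*, an inhibitor of cyclin-dependent kinases, 361 CPM. *Cdkn1c* was higher still in Leydig cells (2403 CPM). *Gata6*, a zinc finger transcription factor, had 250 CPM (234 to 268), against 43.8 in interstitial and 93.2 in Sertoli cells. *Net1*, a guanine nucleotide exchange factor, was at 182 CPM and *Zcchc3*, a zinc finger protein of nucleic acid sensing, at 164 CPM. In the 16 cells with neither stromal gate, *Id1* and *Zcchc3* were less than 2-fold above interstitial cells (log2 ratios 0.83 and 0.96).

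Of the 10 genes lowest relative to interstitial cells, several code for secreted or signalling proteins. *Wfdc1*, a secreted protein, had 3.51 CPM against 82.7 in interstitial cells. *Osr2*, a zinc finger factor of the odd-skipped family, had 4.69 against 92.8 CPM. *Inhba*, the activin A subunit, had 17.3 CPM (13.2 to 22.3) against 210.5, and *Igfbp7*, a secreted binding protein, 43.9 against 483 CPM. *Hhip*, an inhibitor and target of Hedgehog signalling, had 2.05 against 62.1 CPM. *Ppp1r14a*, which regulates myosin phosphatase, had 18.4 against 205 CPM, *Bst2* (tetherin) 21.4 against 256 CPM, and the X-linked *Nexmif* 6.15 against 92.6 CPM. The erythroid genes *Hbb-y* and *Hba-x* also ranked here, at 11.7 and 2.64 CPM. Hemoglobin reached 58.4% of the UMIs of an interstitial cell, and its part in these ratios was not tested. Without the 2 cells scored as doublets the level of *Osr2* was 2.15 CPM, that of *Bst2* 9.53 CPM and that of *Nexmif* 3.69 CPM.

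Stromal genes were nevertheless high in the coelomic epithelium. *Nr2f2*, an orphan nuclear receptor of stromal lineages, had 527 CPM (503 to 552) in 97.9% of cells, against 600 in interstitial and 47.7 in Sertoli cells. *Tcf21*, a basic helix-loop-helix factor, was at 805.5 CPM (776 to 836), above the 650 CPM of interstitial cells, and the matrix genes *Dcn* and *Col1a1* at 801 and 812 CPM, against 828 and 950. Of 9 interstitial markers, none was 2-fold higher and 2, *Inhba* and *Maf*, were 2-fold lower (3.59% and 3.63% of all genes compared). Interstitial cells were gated on *Maf*, *Nr2f2*, *Tcf21* and *Pdgfra* among others, which raises these genes in that class, so the count is a description. Summed over the 9, the level was 3932 CPM in coelomic epithelium, 4370 in interstitial and 332 in Sertoli cells. In single cells the sum ran from 202.5 to 8773 CPM, with a median of 3851. Of the 145 cells, 129 had at least 3 of the 5 genes that gated interstitial cells. The 16 cells that did not had at most 2 of these 5 genes, and 3 or fewer of the 6 peritubular myoid gate genes. The part of free RNA and of mixed droplets in these levels was not tested. Among the 145 cells, 2 belonged to the 172 barcodes scored as doublets, which are the upper 4% of scores. The score is the share of simulated doublets among the nearest neighbours of a cell. Its median was 0.23 here, 0.185 in interstitial, 0.278 in peritubular myoid and 0.156 in Sertoli cells. Germ cells, which should lack the list, had 89.3 CPM.

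Markers of Sertoli, germ, Leydig and immune cells were at or near the level seen in classes that should lack them, which did not hold for all other types. Over 10 Sertoli markers the sum was 48.6 CPM, against 10471 in Sertoli and 75.1 in interstitial cells, and the most abundant was *Aard* at 17.6 CPM. Over 10 germ cell markers it was 17 CPM, with *Nanos2*, *Piwil4* and *Tex101* at 0. The 8 Leydig markers summed to 119 CPM, of which *Fdx1* gave 69.1, against 130 in interstitial and 35550 in Leydig cells. The Sertoli and germ cell limits and the steroidogenic limit of the choice keep some of these low. Interstitial cells were gated under the same limits, so the likeness to them is in part fixed by the gates. They were also limited in endothelial, immune and peritubular myoid genes, which the choice did not limit. The sums over these lists are therefore descriptions. The 8 peritubular myoid markers summed to 1011 CPM, with *Acta2* at 436 (73.1 in the 16 cells with neither stromal gate), against 5218 in peritubular myoid, 1041 in interstitial and 157 in Sertoli cells. Of the 12 genes of the duct epithelium list, 7 had no UMI, *Pax2*, *Lhx1*, *Cdh16*, *Ret*, *Wnt9b* and *Sim1* among them. Its sum of 181 CPM, against 45.4 in interstitial cells, came mainly from *Emx2* (148.5 CPM), a homeobox gene that the gonad shares with the mesonephric ducts. Of the 5 rete testis markers, *Krt8* gave 54.2 of 58.6 CPM (18.5 in interstitial and 99.4 in Sertoli cells), while *Pax8* and *Aldh1a3* had 0.879 CPM each. Over 8 endothelial markers the sum was 68.2 CPM, against 46.4 in interstitial and 53.8 in Sertoli cells, and came mostly from *Kdr* (39 CPM), a VEGF receptor gene, while *Tie1* had no UMI. The 5 perivascular markers summed to 21.1 CPM, against 70.2 in interstitial cells, with *Notch3* the most abundant at 15.2 CPM. Of the 8 immune markers, 5 including *Ptprc* had no UMI, and the sum was 2.34 CPM. Hemoglobin stood apart in 1 cell. It held 24.8% hemoglobin and 3672 UMIs of *Hbb-bs* (whose reads can be shared with its near-identical neighbour *Hbb-bt*), where no other cell had more than 8. With it the pooled level of *Hbb-bs* was 1154 CPM and without it 79.3 CPM. Over the 9 erythroid genes the sum was 1765 CPM with this cell, against 9238 in interstitial cells. Free RNA was not tested as a part of any of these levels.

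**Figure D4:**
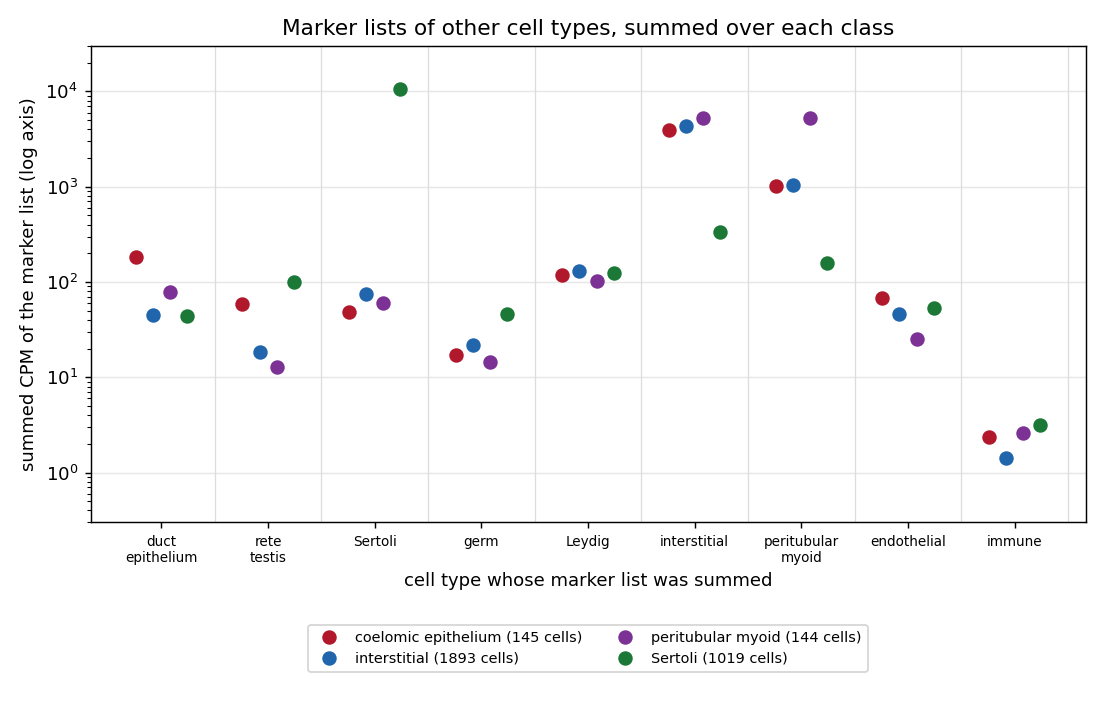
Summed CPM (vertical log axis) of the marker list of each of 9 other cell types in 4 classes of cells. Coelomic epithelium cells were at 3932 CPM for interstitial markers, close to the 4370 CPM of interstitial cells, and at 48.6 CPM for Sertoli markers.

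Junction genes of several kinds were measured. Cadherins join cells at adherens junctions. *Cdh1* (E-cadherin) was seen in 2 cells, at 0.586 CPM, while *Cdh3* (P-cadherin) had 152 CPM (139 to 166) in 91% of cells, against 17.4 in interstitial cells. *Cdh11*, the cadherin of mesenchyme, had 211 CPM and *Cdh2* (N-cadherin) 33.4 CPM. At tight junctions, *F11r* (JAM-A) and *Tjp1* (ZO-1) had 89.6 and 74.4 CPM, *Cgn* (cingulin) 31.6 CPM, and the 7 claudins of the junction list no more than 6.74 CPM. *Epcam* was at 24 CPM. Of the 31 genes of the junction and polarity list in the matrix, 15 could be compared with interstitial cells, of which 6 were at least 2-fold higher and none lower (against 3.59% and 3.63% of all genes), with a median log2 ratio of 0.64. Over all genes compared that median was -0.00077. Against Sertoli cells, which are epithelial too, 3 of 20 genes of the list were higher and 2 lower (8.36% and 11.4% of all genes), with a median of -0.28. The tight junction genes summed to 235 CPM here and 331 in Sertoli cells, and the desmosome genes to 32.5 and 141 CPM. Among 14 genes of mesenchymal transition none was higher than in interstitial cells and 3, *Twist1*, *Twist2* and *Zeb2*, were lower (3.59% and 3.63% of all genes). *Zeb2*, a repressor of *Cdh1*, had 82.3 CPM against 288, and *Snai2* 68.8 against 96.9 CPM. *Vim*, the filament of mesenchyme, was in all cells at 858 CPM, against 1552 CPM in interstitial cells. Against Sertoli cells 7 of 11 mesenchymal transition genes were higher and 1 lower (8.36% and 11.4% of all genes), with a median log2 ratio of 1.64. Against peritubular myoid cells none of 12 was higher and 4 were lower (3.25% and 2.37% of all genes).

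Basement membranes are built of laminins, collagen IV and their linkers. Of the 19 genes compared with interstitial cells, 3 were higher and 5 lower (3.59% and 3.63% of all genes compared). *Lama5*, the laminin chain of mature epithelial basement membranes, had 36 CPM (29.9 to 43), against 0.887 in interstitial and 3.32 in Sertoli cells. *Itga3*, a laminin-binding integrin, had 23.1 against 2.61 CPM, and *Dag1* (dystroglycan) 119 against 44 CPM. The chains of collagen IV, *Col4a1* and *Col4a2*, were lower than in interstitial cells, at 118 against 819 and 62.7 against 378 CPM. *Lama2*, a laminin chain of mesenchyme and muscle, had 5.27 against 44.3 CPM. Laminins and linkers went both ways. Of 7 laminins 1 was higher and 2 lower, of 8 linkers and receptors 2 were higher and 1, *Nid1* (nidogen), lower (49.8 against 125 CPM), and of 4 collagen IV chains 2 were lower and none higher, with *Col4a5* at 39.5 against 34 CPM.

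Transcription factors of the gonadal ridge set up the early gonad. Of the 20 listed, 16 could be compared with interstitial cells, where *Wt1*, *Gata6*, *Emx2* and *Cbx2* were 2-fold higher and none was lower (3.59% and 3.63% of all genes compared). *Lhx9*, a LIM homeobox factor needed for the gonad to form, had 436 CPM (414 to 459), against 266 in interstitial and 16.7 in Sertoli cells. *Emx2* had 148.5 CPM, against 41.4 and 13.4. *Gata4* was at 83.2 CPM, within 2-fold of both stromal classes and below the 162 CPM of Sertoli cells. *Nr5a1*, the gene floxed in these fetuses, had 11.7 CPM (8.37 to 15.9) and was seen in 26 cells, below interstitial (23), peritubular myoid (18.5) and Sertoli (71.8 CPM) cells.

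R-spondins amplify WNT signals by removing the ligases that clear frizzled receptors. *Rspo1*, best known from the fetal ovary, had 0, 142 and 985 CPM in the lowest, median and highest cell and 168 CPM (154 to 182) pooled. This compares with 16.4 CPM in interstitial, 26.2 in peritubular myoid and 2.48 in Sertoli cells. *Rspo3* had 33.4 CPM against 5.96 in interstitial cells, and *Rspo2* and *Rspo4* had no UMI. Of the ligands, *Wnt5a* led with 544.5 CPM, above the 327 of interstitial cells, whereas *Wnt4* was lower (82 against 270 CPM) and *Wnt6* was at 6.44 CPM, far below the 1039 CPM of Sertoli cells. Among the targets, *Nkd1* had 75.6 against 27.4 CPM and *Axin2* 22.9 against 14.8 CPM. *Dkk1* and *Sfrp2*, inhibitors of WNT signals, were higher than in interstitial cells (51.3 against 18.6 and 43.4 against 14.3 CPM), and *Sfrp1* was not (123 against 215 CPM). Over the whole list, 5 of 23 compared genes were higher and 3 lower (3.59% and 3.63% of all genes compared), with a median log2 ratio of -0.02. Of the 12 genes of the ovarian supporting lineage, 6 could be compared, with *Rspo1* and *Fst* higher and *Wnt4* lower. *Fst* (follistatin) was at 21.7 CPM, and *Foxl2* had no UMI.

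Retinoic acid is made from retinaldehyde by ALDH1A enzymes. *Aldh1a2* was in 142 cells, with 324 CPM in the median cell and 334 CPM (314.5 to 354) pooled, 8.42-fold above interstitial cells. *Aldh1a1* was at 21.1 CPM, against 76.5 in interstitial and 1211 CPM in Sertoli cells. *Crabp2*, which delivers retinoic acid to its receptors, had 46.6 against 11.3 CPM. Of the degrading enzymes, *Cyp26b1* had 6.74 CPM, against 84.3 in Sertoli cells, and *Cyp26a1* and *Cyp26c1* had no UMI. The list had 2 of 13 compared genes higher and 2 lower than in interstitial cells (3.59% and 3.63% of all genes compared), with a median log2 ratio of -0.23.

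Most of the listed immediate targets of BMP signals were higher than in interstitial cells. *Id1*, *Id2* and *Id3*, inhibitors of helix-loop-helix factors, had 404, 417 and 910 CPM, against 165, 129 and 266 in interstitial cells. With the inhibitor *Smad6* (35.4 against 9.91 CPM), 4 of the 5 listed targets were 2-fold higher than in interstitial cells, and *Smad7* was not (90.5 against 75.8 CPM). Against peritubular myoid cells 3 of the 5 were higher and none lower (3.25% and 2.37% of all genes). Against Sertoli cells 2 of the 5 were higher and 1 lower (8.36% and 11.4% of all genes). In the 16 cells with neither stromal gate, *Id1* was less than 2-fold above interstitial and Sertoli cells (log2 ratios 0.83 and 0.97). Of the ligands, *Bmp4* and *Bmp2* were low (19.6 and 9.37 CPM) and *Tgfb2* the most abundant, at 141 CPM. *Amhr2*, the receptor of anti-Mullerian hormone, had 40.4 CPM, against 9.12 in interstitial and 283 in Sertoli cells. Over the whole list of 32 genes, 25 were compared, with 7 higher and 3 lower (3.59% and 3.63% of all genes compared) and a median log2 ratio of 0.24.

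Growth factors signal from ligand to receptor kinase. *Fgf9*, which supports testis development, was in 97 cells at 67.4 CPM (58.9 to 76.7), against 1.28 in interstitial and 13.8 in Sertoli cells. Thinned to 5000 UMIs per cell, 30.1% of coelomic epithelium cells kept a UMI of *Fgf9*, against 7.13% of Sertoli and 0.549% of interstitial cells. *Fgf18* and *Fgf2* had 22 and 55.7 CPM, and *Pdgfc* and *Pdgfa* 117.5 and 81.4 CPM. Of the compared genes, 5 of 13 ligands were higher than in interstitial cells and none lower (3.59% and 3.63% of all genes compared). Of 10 receptors none was higher and *Pdgfrb* was lower (38.1 against 126 CPM), which is near those shares. *Pdgfra* had 126 against 255 CPM. Of 5 inhibitors and targets compared, none was higher and 1 was lower. Over the whole list, 5 of 28 compared genes were higher and 2 lower, with a median log2 ratio of 0.01.

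The shares of all genes compared, 3.59% higher and 3.63% lower than in interstitial cells, hold for the next counts too. In fetal testes, Hedgehog signals pass from Sertoli cells to the interstitium. The ligand *Dhh* had 292 CPM in Sertoli cells and 2.64 CPM here. *Ptch1*, receptor and target, had 45.4 against 185 CPM and *Gli1* 19 against 39.9 CPM, while *Smo*, the signal transducer, was at 146 against 103 CPM. Of the 7 compared genes 3 were lower, *Ptch1* and *Hhip* among them, and none higher. In the Notch list none of 10 was higher and 4 were lower, namely *Notch1*, *Notch3*, *Heyl* (16.7 against 75.2 CPM) and *Hes1* (60.6 against 134 CPM). *Notch3* is also on the perivascular list, which summed to 70.2 CPM in interstitial and 20.2 CPM in peritubular myoid cells. Interstitial cells were gated without a limit on perivascular genes, and the part of such cells was not tested. Of the Hippo pathway, 4 of 12 compared genes were higher and none lower, with *Amotl2* (59.2 against 15.5 CPM) and the coactivator *Wwtr1* (98.1 against 41.6 CPM) among them, and *Ankrd1* had no UMI. Against peritubular myoid cells none of 11 Hippo genes was higher or lower, and the list summed to 714 CPM here, 552.5 in interstitial, 683 in peritubular myoid and 694 in Sertoli cells.

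Against peritubular myoid cells, where 3.25% of all genes were higher and 2.37% lower, the same pathway lists gave other counts. In the WNT list 3 of 16 genes were higher and 3 lower, in the retinoic acid list 2 of 6 were higher and none lower, and in the BMP list 5 of 16 were higher and 1 lower. The growth factor list had 2 of 18 higher and 1 lower, and the Notch and Hedgehog lists none of 5 in either direction.

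Of 9 hormone receptors, 6 could be compared, with *Amhr2* and *Vdr* higher than in interstitial cells and 1 lower (3.59% and 3.63% of all genes compared). *Vdr*, the vitamin D receptor, had 17.9 against 3.1 CPM. *Esr1* was at 9.08 against 9.02 CPM. Of the stress and immediate early genes, *Jun* was higher (242 against 105 CPM) and *Junb* and *Ier2* were lower than in interstitial cells, and *Fos* and *Hspa1a* had 5.57 and 2.64 CPM.

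The share of cells called S or G2/M from their cell-cycle genes was higher in coelomic epithelium than in interstitial or Sertoli cells, and close to that of peritubular myoid cells. At 5000 UMIs per cell, 94 of 143 coelomic epithelium cells were called S or G2/M (65.7%, 57.3 to 73.5%), 44 of them S and 50 G2/M. The share was 49.4% (47.1 to 51.7%) of interstitial, 67.6% of peritubular myoid and 44.8% of Sertoli cells. Without thinning it was 66.9% in coelomic epithelium, 46.8% in interstitial, 68.1% in peritubular myoid and 44.7% in Sertoli cells. Of 41 S phase and 52 G2/M genes none was 2-fold higher or lower than in interstitial cells, with median log2 ratios of 0.05 and -0.07. *Ube2c*, which drives the exit from mitosis, had 287 CPM here and 299 in interstitial cells, and *Mki67*, a proliferation marker, 183 and 185 CPM. Against Sertoli cells 1 gene of each list was higher, *Cdca7* (64.7 against 25.4 CPM) and *Hmgb2* (978 against 353 CPM), and none lower, where 8.36% of all genes compared were higher and 11.4% lower. Summed over the S phase genes the level was 3163 CPM here, 2913 in interstitial, 2971 in peritubular myoid and 2576 in Sertoli cells. Over the G2/M genes it was 6281, 6547, 7798 and 5130 CPM in the same order. The G2/M sum was thus slightly below that of interstitial cells, which had the lower share of calls, while both sums were above those of Sertoli cells. Free RNA was not tested. Of the cyclins and inhibitors, *Cdkn1c* alone was higher than in interstitial cells (361 against 155 CPM) and none lower, among 9 compared (3.59% and 3.63% of all genes), and *Cdkn1a* was at 1.17 CPM.

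Clustered alone, with the listed cell-cycle genes left out, the cells fell into 3 sub-groups. The sub-groups were made from the other genes of these same cells, so the values below are a description. Cell-cycle genes outside the lists were not left out and could take part in the clustering. The phase calls of the sub-groups are therefore not independent of how they were made. The 58 cells of sub-group 1 (18887.5 UMIs in the median cell) were led by genes of mitosis. *Ube2c* had 646 CPM (602.5 to 692) there, against 94.3 in sub-group 2 and 46.5 in sub-group 3, and *Top2a*, which untangles DNA, 719, 212 and 99.3 CPM. Of these cells 57 of 58 were called S or G2/M, against 23 of 48 in sub-group 2 and 14 of 37 in sub-group 3. Hemoglobin genes ranked first here because of the 1 cell described above.

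Sub-group 2 held 50 cells (median 21023.5 UMIs), including both cells scored as doublets, and was led by contractile and stromal genes. *Acta2*, smooth muscle actin, had 796 CPM (749 to 845), against 264 and 94.3 CPM in sub-groups 1 and 3. Its level was uneven within sub-group 2, where 44 of 50 cells had a UMI and 1 cell reached 5344 CPM. *Tagln* (transgelin) had 589, 335 and 181 CPM in sub-groups 2, 1 and 3, and *Cxcl12*, a chemokine of stroma, 334, 177 and 23.9 CPM. *Sostdc1*, a secreted antagonist of BMP and WNT signals, had 147, 42.8 and 17.6 CPM and *Col4a1* 199, 74.5 and 49 CPM in the same order. *Krt19* was lowest in this sub-group, at 90.6 CPM.

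Sub-group 3 held 37 cells, of a lower median depth (13390 UMIs), and was led by *Itm2a*, at 2713 CPM (2600 to 2830) against 1039 in sub-group 1 and 505.5 in sub-group 2. *Krt19* had 363 CPM (322.5 to 408) and *Tm4sf5* 387 CPM (345 to 433), the highest of the 3 sub-groups. *Hand2*, *Crabp2*, *Lama5* and *Frem2* were also highest there, at 147, 93, 66.6 and 124 CPM. At 5000 UMIs per cell, *Krt19* was seen in 83.8% of cells of sub-group 3, 55.2% of sub-group 1 and 22.9% of sub-group 2. *Upk3b* was lower there (239 CPM, 206 to 275) than in sub-groups 1 and 2 (334 and 332 CPM). *Wt1* had 354, 346 and 388 CPM, *Rspo1* 164, 172 and 165 CPM and *Aldh1a2* 361, 326 and 304 CPM in sub-groups 1, 2 and 3, with overlapping intervals.

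**Figure D5:**
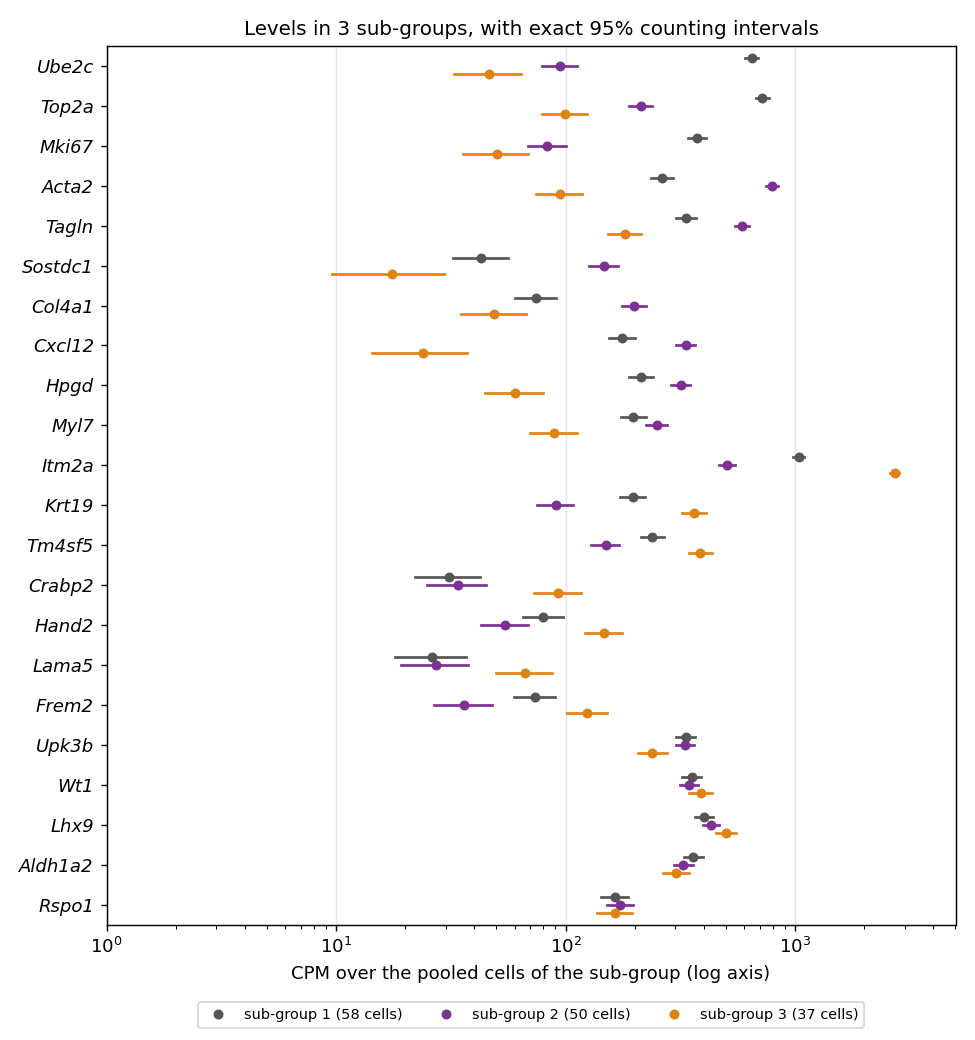
Pooled CPM (horizontal log axis) of 22 genes in the 3 sub-groups of coelomic epithelium cells, with exact 95% Poisson intervals as lines. *Ube2c* was highest in sub-group 1, *Acta2* in sub-group 2 and *Itm2a* in sub-group 3, and *Wt1*, *Aldh1a2* and *Rspo1* had intervals that overlap.

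Among the 10807 genes seen in at least 10 of the cells, *Itm2a* had the highest residual variance, that is, the spread between cells beyond counting noise. Of the first 20 genes, 6 were in the cell-cycle lists, such as *Ube2c*, *Hmgb2*, *Cenpf* and *Top2a*, and the contractile genes *Acta2* and *Tagln* also ranked there. *Hoxd11*, which ranked 21 with a residual variance of 7.23 (median of all 1.05), was named after the values were seen. *Hox* genes are homeobox factors that mark position along the body axis. *Hoxd11* (chromosome 2, 74679557 to 74687016, GRCm38) had 135 UMIs in 29 of the 145 cells, up to 15 in a cell and at least 3 in 19 cells. These 29 cells were not deeper than the others (median 17915 and 18887.5 UMIs), and 14, 13 and 2 of them lay in sub-groups 1, 2 and 3. Its neighbour *Hoxd10* (74691924 to 74695105) had 124 CPM (98.7 to 155) in the cells with *Hoxd11* and 27.4 CPM (21.6 to 34.3) in the cells without it. Other *Hox* genes differed in both directions between the cells with and without *Hoxd11*. The share of all genes that differ between these cells is not given, so these values describe single genes only. *Hoxb9*, of another cluster, had 31.1 CPM (19 to 48.1) and 3.97 CPM (1.98 to 7.1), a larger ratio than that of *Hoxd10*. *Hoxa7* (4.67 and 19.1 CPM), *Hoxc8* (77.8 and 124 CPM) and *Hoxd9* (160 and 211.5 CPM), the next gene of the cluster, went the other way. The intervals of *Hoxd9* nearly touched (130.8 to 194.3 and 194.7 to 229.3 CPM). Intervals overlapped for *Hoxa10* (10.9 and 2.17 CPM), *Hoxa9* (10.9 and 2.89 CPM), *Hoxc10* (20.2 and 7.94 CPM) and *Hoxd3* (1.56 and 9.02 CPM), among others. *Cxcl12* was higher in the cells with *Hoxd11*, at 415 against 154 CPM, and *Gpm6a* lower, at 6.22 (1.7 to 15.9) against 40.8 CPM. Sub-group 3, where *Cxcl12* had 23.9 CPM, held 2 of the 29 cells with *Hoxd11* and 35 of the 116 without it. Levels were not compared within sub-groups. In the whole class the levels of *Hoxd11* and *Hoxd10* were 39.5 and 45.7 CPM, against 14.4 and 57.4 in interstitial cells, and *Hoxd12* had no UMI.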

How the data were processed

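The data are from the single-cell control library of mouse testes at E14.5 (12 controls pooled, 1 sample). It was made with the Chromium single-cell 3-prime v3 kit, in which UMIs do not scale with transcript length. The authors aligned reads with Cell Ranger to mm10 joined to a YFP sequence. The deposited values are raw UMI counts per gene and barcode, without normalization (22631 features, 5421 barcodes, 501 to 143197 UMIs each, median 10766). The submitters' processing notes name Cell Ranger 3.0.2 and 3.1.0, and the labels give E14.5 where the methods name E13.5 too. The mutant library was not analysed here.

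The cells, comparison classes and gene lists were chosen with earlier results of these data known. Comparison cells had at least 1000 genes and at most 2 of the 7 coelomic genes. Interstitial cells had at least 3 of 5 interstitial genes, *Nr2f2*, *Pdgfra*, *Tcf21* and *Maf* among them, peritubular myoid cells at least 4 of 6 contractile genes, and Sertoli cells at least 5 of 6 Sertoli genes. Interstitial cells also had at most 3 of the 6 contractile genes. Both stromal classes kept the Sertoli, germ cell and steroidogenic limits of the coelomic cells, with at most 1 endothelial and 1 immune gate gene. Peritubular myoid cells alone had a limit on perivascular genes. The choice of coelomic cells set no limit on endothelial, immune, perivascular or contractile genes. Germ cells had at least 5 of 6 germ cell genes and Leydig cells at least 1% steroidogenic UMIs. The classes held 314 germ and 256 Leydig cells, and 530 cells fell in none. Medians were 9758 UMIs in interstitial, 14186.5 in peritubular myoid and 14242 in Sertoli cells. A level is the summed UMIs per 1000000 of a class (CPM), with exact Poisson and Clopper-Pearson 95% intervals. Shares of cells were also given after thinning to 5000 UMIs, which left out 2 coelomic, 72 interstitial and 51 Sertoli cells. Doublets were scored with simulated doublets (25% of the data, upper 4%) and kept. Sub-groups came from Leiden clustering of Pearson residuals (1000 genes, 10 components, resolution 0.5), and phases from gene scores.

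Named genes were the 7 of the choice, the 20 others with the highest ratio to all other cells (at least 100 UMIs), the 20 most abundant genes at least 2-fold over the 3 classes, the 10 with the lowest ratio to interstitial cells (at least 500 UMIs), the 20 with the highest residual variance, and members of the lists. Some genes that these rules name are not reported here. Positions are from GENCODE on GRCm38 (mm10). The steps were tested on simulated data, in Python 3.11.15 with numpy 2.4.6 and scipy 1.17.1.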

Additional observations from a re-analysis of the deposited data

Results flagged for a closer look

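YFP, the reporter sequence added to the reference, had 5 UMIs in 5 of the 145 coelomic epithelium cells (3.45%, exact 95% interval 1.13 to 7.86%), although the controls of this experiment lacked the reporter transgene. It was singled out because it is a signal in a feature that no comparison used, above the 3 counts that a count of 0 allows. All cells with at least 1000 genes held 157 YFP UMIs, with a UMI in 3.44% of them, in 2.27% of interstitial and in 10.2% of Leydig cells. Its source was not tested.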

How the results depend on the processing

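The 145 coelomic epithelium cells became 167 with 3 and 119 with 5 genes required, and 16 when cells with at least 3 interstitial or 4 peritubular myoid genes were left out. In that setting, 1538 genes were at least 2-fold lower than in interstitial cells, 81 higher and 381 lower than in peritubular myoid cells, 2100 lower than in Sertoli cells, and 56.2% of cells were called S or G2/M. Fewer cells and UMIs were compared there. The level of 21 of 60 named genes moved by more than 1.5 times in it. Some went up (*Krt19* to 482 CPM, *Krt7* to 271, *Podxl* to 314, *Sulf1* to 310, *Tmem108* to 258). Some went down (*Hpgd* to 47.3 CPM, *Bnc1* to 47.3, *Angptl7* to 30.1, *Krt14* to 8.6, *Acta2* to 73.1). *Hpgd*, *Id1* and *Zcchc3* were no longer 2-fold above interstitial cells. Nor was *Itm2a* with 3 genes required or with outlier cells left out. With 20 CPM added, 168 genes were higher and 151 lower than in interstitial cells, 128 higher and 85 lower than in peritubular myoid cells, and 479 higher and 588 lower than in Sertoli cells. With 1 CPM added, 580 genes were lower than in interstitial cells. Without a minimum of UMIs, 403 genes were higher and 243 lower than in peritubular myoid cells. With at least 500 UMIs, where fewer genes were compared, 127 were higher than in interstitial cells, 53 higher and 45 lower than in peritubular myoid cells, and 289 higher and 740 lower than in Sertoli cells. The other counts lay within 1.5 times the values given above, under limits of 500 and 2000 genes, with doublets or outlier cells left out, and with the mean of cells. The share called S or G2/M stayed within its interval under thinning to 3000 UMIs and without thinning. A setting chosen after seeing the data left out cells over 50000 UMIs or over 1% hemoglobin. It kept every count within 1.5 times, took *Itm2a* below 2-fold over interstitial cells and moved *Osr2* and *Bst2* among 60 named genes by more than 1.5 times. Leaving out doublets moved *Osr2*, *Bst2* and *Nexmif* by more than 1.5 times, leaving out outlier cells *Osr2* and *Bst2*, and the mean of cells *Bst2*. No paired analysis was possible because there was 1 library.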
